A study of Mus musculus with 8 samples.

Results

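Chromatin loops were described at 8 genes that control the G1 phase of the cell cycle, the D-type cyclin genes Ccnd1, Ccnd2 and Ccnd3, the cyclin E gene Ccne1, the kinase genes Cdk4 and Cdk6, and the inhibitor genes Cdkn1a and Cdkn1b. A loop, here a pair of genomic segments (anchors) that were joined in Hi-ChIP read pairs, was taken when an anchor lay within 2 kb of an annotated transcript start of 1 of these genes. This gave 331 distinct loops of the 249200 distinct loops in the 4 lists of the series, and no loop belonged to more than 1 of the 8 genes.

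Hi-ChIP, which joins chromatin conformation capture with immunoprecipitation of a chosen protein, was performed for FOXA1 and for HNF4G in KPC-derived mouse pancreatic cancer cells. FOXA1 is a forkhead factor that binds closed chromatin, and HNF4G is a nuclear receptor of the HNF4 family. Of the 4 groups, FOXA1 tumor and HNF4G tumor came from a primary tumor line and FOXA1 liver mets and HNF4G liver mets from the matched liver metastasis line, each with 2 replicates and 1 deposited loop list that covered both. KPC mice are an engineered model of pancreatic cancer, and both lines share that origin. The labels give the genotype as WT and the cells as untreated, and the cells were grown in DMEM with serum. Each condition rests on 1 line, so the line and the condition cannot be told apart. Loop lists hold no expression values, so the labelled cell type was not checked against marker genes.

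D-type cyclins bind CDK4 or CDK6 when cells receive growth signals, and the complexes phosphorylate the retinoblastoma protein. Cyclin E with CDK2 then completes that step and the cell enters S phase. CDKN1A (p21), a classic target of p53, and CDKN1B (p27), which is held in check by ubiquitin-mediated decay, bind these complexes and restrain CDK2. Cyclin D1 in particular is often overproduced in pancreatic and other epithelial cancers, and CDK4 and CDK6 are the targets of the CDK4/6 inhibitor drugs.

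The loop lists give for each loop a value that was read as the −log10 of an adjusted p-value, with 20 as the highest value in any list. Each list also holds long runs of loops with 1 shared value. The higher shared value lay between 1.87 and 1.99 and the lower between 0.0889 and 0.171, depending on the list. At the 8 genes, 45 of 168 loops and 34 of 138 for FOXA1 (liver mets, then tumor) and 35 of 113 and 25 of 120 for HNF4G had 1 of these shared values. A loop at a shared value was listed, but its value does not set it apart from many others, and long loops at the higher shared value are named below only as listed. Loops of like span at different genes could also have nearly the same value within a list. A difference between lists at 1 such loop therefore need not be particular to its gene. No value per replicate was given. The spread between replicates is therefore unknown, no test between groups was made, and all intervals are 95% intervals that cover counting error only.

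Sequences are shown for 2 promoters and for some of the distal partners described below. These partners were chosen because they held letters that FOXA1 (a forkhead core) or HNF4 factors are known to bind, so that these can be read in place. Other partners described below held neither, among them chr7:145105364-145108659 of Ccnd1 and chr6:134924952-134930044 of Cdkn1b. The Cdk6 gene looped to a segment inside the gene that was listed in all 4 groups. In that segment a forkhead core (TGTTTAC) and an HNF4 match (CAAAGGTCA) overlapped by 1 base, on the minus strand at chr5:3501155-3501369 (mm10), with the joined 15 bases in capitals:

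Cdk6 intronic partner: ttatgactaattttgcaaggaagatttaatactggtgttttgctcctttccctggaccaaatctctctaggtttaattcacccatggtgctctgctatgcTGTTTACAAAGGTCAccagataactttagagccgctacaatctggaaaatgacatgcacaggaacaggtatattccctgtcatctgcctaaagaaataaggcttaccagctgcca

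The 2 motifs were searched one by one, and their overlap was noticed after this sequence was seen, so it is shown as a description. The forkhead core by itself was in 36.6% of all 30542 anchors and in 35.8% of the 274 distinct partner anchors of the 8 genes. Either HNF4 match (CAAAGTCCA or CAAAGGTCA) was in 8.87% of all anchors and in 8.39% of the partners, and both kinds together were in 3.79% and 4.01%. The partners as a set therefore held these letters about as often as all anchors did. The Ccnd1 and Ccnd2 partners below lie far upstream of their genes, outside any annotated exon, and are shown with the forkhead core or HNF4 match in capitals. The first pair lies on the minus strand of 1 anchor in a Tpcn2 intron, at chr7:145222477-145222537 and chr7:145222700-145222762. The others lie at chr7:145114235-145114297 on the plus strand, chr6:127334285-127334345 on the plus strand and chr6:127341073-127341135 on the minus strand.

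Ccnd1, Tpcn2 intron, forkhead: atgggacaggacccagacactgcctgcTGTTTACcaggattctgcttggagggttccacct
Ccnd1, Tpcn2 intron, HNF4: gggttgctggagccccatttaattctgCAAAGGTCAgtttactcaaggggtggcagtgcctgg
Ccnd1, intergenic partner, HNF4: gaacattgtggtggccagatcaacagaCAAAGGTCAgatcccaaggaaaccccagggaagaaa
Ccnd2, intergenic partner in all 4 lists, forkhead: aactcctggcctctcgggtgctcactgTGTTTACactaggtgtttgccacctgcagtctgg
Ccnd2, intergenic partner in 2 lists, HNF4: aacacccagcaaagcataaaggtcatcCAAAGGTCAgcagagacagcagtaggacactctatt

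Promoter sequence (RefSeq, GRCm38.p6, the same sequence as mm10) was at hand for 6 of the 8 genes. The 250 bases before the annotated 5′ end of Ccnd3 (chr17:47504801-47505050, plus strand) held a forkhead core, which 3.17% of 32851 promoters hold in the same stretch. They also held a GC box (GGGCGG, 32.7% of promoters) and a CTCF core (CNAGGGGGC, 2.41%) that overlaps another GC box. The stretch before another Ccnd3 start (chr17:47593217-47593466), at its other anchor, held neither a forkhead nor a CTCF core. None of the remaining stretches of these genes held either, so the 1 shown is the only one with them. The stretch before the Cdkn1b start (chr6:134920151-134920400, plus strand) held 1 GC box and none of the forkhead, HNF4, CTCF or AP-1 (TGANTCA) letters. Matches on either strand are in capitals:

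Ccnd3 promoter: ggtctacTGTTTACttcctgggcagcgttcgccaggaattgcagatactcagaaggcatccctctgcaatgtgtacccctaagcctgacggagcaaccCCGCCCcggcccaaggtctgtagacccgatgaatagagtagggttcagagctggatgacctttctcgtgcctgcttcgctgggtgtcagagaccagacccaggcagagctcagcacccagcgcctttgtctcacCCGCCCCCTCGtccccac
Cdkn1b promoter: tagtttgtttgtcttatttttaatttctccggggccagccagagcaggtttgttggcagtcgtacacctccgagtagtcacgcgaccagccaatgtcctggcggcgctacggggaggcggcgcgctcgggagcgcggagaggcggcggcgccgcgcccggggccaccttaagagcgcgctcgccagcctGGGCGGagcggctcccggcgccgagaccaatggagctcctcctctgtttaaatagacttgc

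The 8 genes differed widely in how many loops they had. Ccnd3 had the most, with 45 and 33 loops for FOXA1 (liver mets, then tumor) and 35 and 32 for HNF4G. Ccnd1 came second in each list, with 38, 32, 20 and 24. Ccne1 had the fewest, with 1, 1, 3 and 2. Among the 10786 protein-coding genes with an anchor at a start, the median gene had 7, 6, 5 and 5 loops in the same order of lists, and the median of the 8 genes was 17, 16.5, 12.5 and 13.5. Ccnd3 lay between the 96.1 and the 98.3 percentile of those genes in the 4 lists and Ccnd1 between the 92.8 and the 95.8 percentile, while Ccne1 lay between the 6.43 and the 34.5 percentile. Ccnd1, Ccnd3 and Cdk4 each had 2 anchors at their starts, and the other 5 genes had 1.

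**Figure D1:**
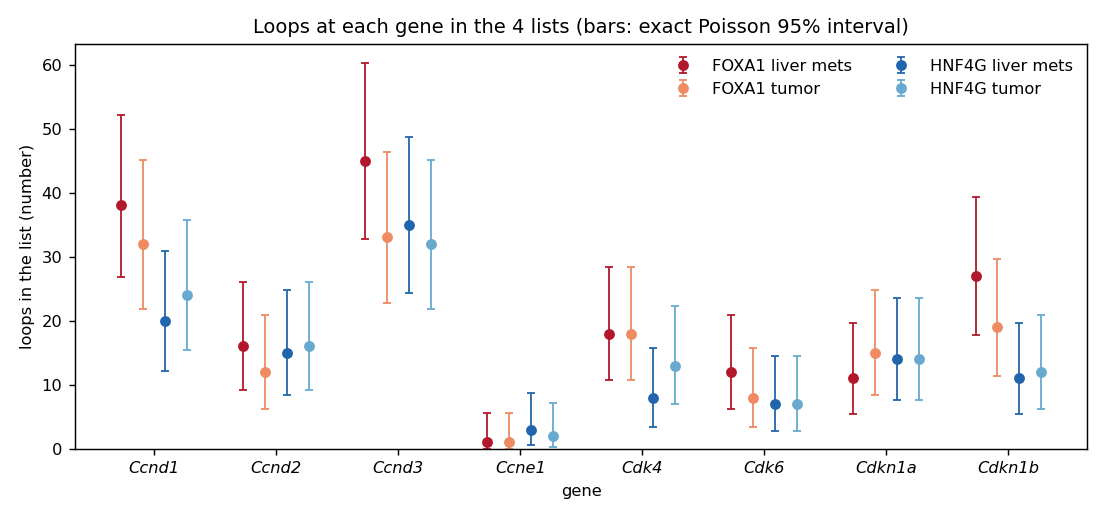
Number of loops (vertical axis) at each of the 8 genes (horizontal axis) in the 4 lists (colors), with exact Poisson 95% intervals as bars. Ccnd3 and Ccnd1 are the highest in every list, between 20 and 45 loops, and Ccne1 is the lowest, with 1 to 3.

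Ccnd1 encodes cyclin D1. Its 66 distinct loops started from 2 anchors, 1 over the start of the gene (chr7:144938552-144944668, 44 loops) and 1 inside it (chr7:144935483-144937796, 22 loops). Most partners lay upstream, 46 against 20 downstream, and only 13 of 66 (19.7%, 95% Wilson interval 11.9 to 30.8%) had an annotated start within 2 kb. The partners were thus mainly segments between genes or inside introns rather than other promoters.

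The upstream partners of Ccnd1 were spread along the upstream side, and 3 stretches of neighboring anchors among them are described here. Between 20 and 50 kb upstream, all 4 anchors of the stretch were partners, with 5 and 4 loops for FOXA1 (liver mets, then tumor) and 4 and 5 for HNF4G. Between 160 and 210 kb upstream, all 5 anchors were partners, with 6, 3, 4 and 5 loops. Between 250 and 290 kb, in and beside Tpcn2, which encodes an ion channel of endolysosomes, all 6 anchors were partners, with 5, 3, 3 and 2 loops. These 3 distance ranges were chosen after the positions of the partners were seen. In the 3 stretches together, every anchor was thus joined to Ccnd1 in at least 1 list. Partners also lay between 50 and 160 kb upstream, such as the one with a span of 68.8 kb that was in all 4 lists. The stretches are therefore not set apart from the other upstream partners.

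Single Ccnd1 loops had unequal values in the 4 lists. The loop to the Tpcn2 intron (chr7:145221250-145223582, span 280.8 kb) reached 12.4 for FOXA1 and 1.88 for HNF4G in the liver mets lists and was in neither tumor list. The loop to chr7:145105364-145108659 (165.4 kb), the longest Ccnd1 loop in all 4 lists, had values of 7.81 and 2.65 for FOXA1 (liver mets, then tumor) and 1.69 and 1.65 for HNF4G. Its neighbor chr7:145109936-145115387 (171.1 kb) was the highest Ccnd1 loop of both HNF4G lists, with 3.06 in liver mets and 2.89 in tumor, and had 5.87 in FOXA1 liver mets. FOXA1 tumor lacked it and had its own highest value, 2.81, at chr7:145128973-145132841 (189.3 kb), which was in both HNF4G lists at 1.76 and 1.72 but not in FOXA1 liver mets. The 3 highest values at Ccnd1 (12.4, 7.81 and 5.87) thus all came from 1 list, FOXA1 liver mets, and the latter 2 of these partners were in both HNF4G lists as well.

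Ccnd2 encodes cyclin D2. It had 1 anchor (chr6:127150509-127153453), shared with the start of 9330179D12Rik, and 34 distinct loops, with 16 and 12 for FOXA1 (liver mets, then tumor) and 15 and 16 for HNF4G. All 16 in FOXA1 liver mets spanned at least 100 kb, with a median span of 562 kb, whereas the median was 192 kb for FOXA1 tumor and, for HNF4G, 197 kb (liver mets) and 218 kb (tumor). The long loops of FOXA1 liver mets include 7 at the higher shared value, among them one to the start of Foxm1 and Rhno1, 1212 kb away, that was in no other list. Foxm1 encodes a forkhead factor of the G2 and M phases, and the loop was picked out after the partners were seen.

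One stretch, between 170 and 230 kb upstream of Ccnd2, held 9 anchors, and all 9 were partners of the gene, with 6 and 5 loops for FOXA1 (liver mets, then tumor) and 6 and 5 for HNF4G. This range too was chosen after seeing the positions. The loop to chr6:127333405-127337350 (183.4 kb) was in all 4 lists, with values of 3.98, 2.82, 3.14 and 1.72 in the same order. It was the highest Ccnd2 loop in both FOXA1 lists. The adjacent loop to chr6:127328430-127332876 (178.7 kb), named after its values were seen, was also in all 4 lists, with 2.36, 2.75, 3.1 and 9.77. Another, to chr6:127340981-127342530 (189.8 kb), reached 20 in HNF4G tumor and 1.40 in FOXA1 liver mets and was absent from the other 2 lists. HNF4G tumor thus had its 2 highest Ccnd2 values at intergenic anchors of this stretch. The nearest coding start, that of Parp11, was 69.8 to 119 kb from the 9 anchors, and 1 of them lay at the start of the noncoding gene Gm42458. In HNF4G liver mets the highest value, 3.27, belonged to a loop downstream to the start of Dyrk4, which encodes a dual-specificity kinase, and that loop was in FOXA1 tumor at 1.70 as well.

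Ccnd3 encodes cyclin D3. Its 88 distinct loops came from an anchor over the annotated 5′ end (chr17:47500838-47506125, 46 loops) and from an anchor over starts further into the gene (chr17:47592592-47596474, 43 loops). The first is shared with the start of Taf8, a subunit gene of the general transcription factor TFIID. Reads at the shared anchor cannot be assigned to Ccnd3 rather than Taf8. The 2 Ccnd3 anchors were joined to each other, 91.1 kb apart, in all 4 lists, with values of 0.835 and 0.418 for FOXA1 (liver mets, then tumor) and 1.99 and 2.10 for HNF4G. Both HNF4G values lay above both FOXA1 values, and the one in liver mets was the higher shared value of its list.

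Ccnd3 was the gene with most loops in all 4 lists, 8 of 88 (9.09%, 4.68 to 16.9%). Besides the loop between its own starts, 2 of them reached coding starts. The longer, 107.6 kb to the shared start region of Bysl and Med20, had values of 0.217, 0.955, 1.33 and 1.15, and the other, 64.7 kb upstream to 1700001C19Rik and AI661453, had 1.76, 0.863, 0.146 and 0.171, each with the FOXA1 values before the HNF4G values and liver mets before tumor. Bysl encodes a ribosome assembly factor and Med20 a Mediator subunit. The loop with Bysl and Med20 was higher in both HNF4G lists than in either FOXA1 list. The one with 1700001C19Rik and AI661453 was lower. Loops of like span elsewhere could have similar values. A Cdk4 loop (107.8 kb, to B4galnt1) had 0.216 and 0.95 for FOXA1 (liver mets, then tumor). Another Ccnd3 loop (109.8 kb) had 1.36 and 1.26 for HNF4G. A Cdkn1b loop (105.2 kb) differed, with 0.795 in FOXA1 liver mets. Whether the difference is particular to the Bysl and Med20 contact was not tested. The highest Ccnd3 loop of each list was a different one and each was absent from at least 1 other list. It led to the start of Tfeb, a regulator of lysosome genes, in FOXA1 liver mets (2.92, 257.6 kb), to a Trerf1 intron in FOXA1 tumor (3.49, 426.2 kb), to Pgc in HNF4G liver mets (3.29, 227 kb) and to the start of Guca1b in HNF4G tumor (2.28, 122.3 kb). No Ccnd3 loop in any list exceeded 3.49, although this gene had the most loops of the 8.

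Ccne1, which encodes cyclin E1, had 4 distinct loops from 1 anchor (chr7:38105755-38109788), none of them above 100 kb and none in 3 or more lists. The loop to the start of Uri1, a prefoldin-like gene 88.7 kb away, was in both liver mets lists, with 0.0889 for FOXA1 and 0.980 for HNF4G. The loop to an intergenic anchor 21.9 kb downstream was in both tumor lists, with 0.122 for FOXA1 and 0.933 for HNF4G. An intergenic anchor 99.8 kb upstream was listed in HNF4G liver mets alone, at 1.25, the highest value of the gene. A start region 77.6 kb upstream (1600014C10Rik), the 1 remaining loop of the gene, was in both HNF4G lists. Only 8 anchor pairs of Ccne1 lay within 1000 kb, so its small number of loops came with few candidate partners, and 1 to 3 of the 8 were listed in any group.

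Cdk4 encodes a kinase partner of D-type cyclins. It had 44 distinct loops from 2 anchors, 1 over its start (chr10:127062592-127065319, 25 loops) and 1 at the start of March9 (chr10:127058763-127061813, 19 loops), which lies 1721 bp from the Cdk4 start and was included by the 2 kb rule. Unlike at Ccnd1, most partners were promoters, 31 of 44 (70.5%, 55.8 to 81.8%). The 44 loops reached 33 distinct partner anchors and the 66 loops of Ccnd1 reached 47, since a partner can be joined to both anchors of a gene. Loops were thus not independent, and the intervals of the 2 genes are too narrow to be compared. None of the 44 loops was in all 4 lists (95% Wilson interval 0 to 8.03%), and 35 (79.5%) were in a single list. Values stayed below 2 in every list. From the Cdk4 start, the start of B4galnt1, a ganglioside synthase gene 104.1 kb downstream, was reached for FOXA1 in liver mets (0.397) and for HNF4G in liver mets (1.31) and tumor (1.99). From the March9 anchor the same partner was in both FOXA1 lists, with 0.216 in liver mets and 0.95 in tumor, so that it was listed in all 4 groups through 1 anchor or the other. The gene's other loops in 3 lists led to the start of Agap2, into Agap2 and into Os9, with spans of up to 36.4 kb, and these were named after the partners were seen. One loop of 1641 kb, listed in FOXA1 liver mets alone at the higher shared value, joined Cdk4 to the start region of Cdk2 and Pmel. It too was picked out after the partners were seen.

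Cdk6, which encodes the other kinase partner of D-type cyclins, is a long gene and had 16 distinct loops from 1 anchor (chr5:3340675-3346527). The loop to chr5:3500957-3504110, 158.9 kb downstream and still inside Cdk6, next to the start of the noncoding gene Gm42435, had values of 11.4 and 1.49 for FOXA1 (liver mets, then tumor) and 4.88 and 6.65 for HNF4G. It was the highest Cdk6 loop in 3 of 4 lists and holds the joined forkhead and HNF4 letters shown above. FOXA1 tumor had the lowest of the 4 values. The 2 other anchors between 150 and 170 kb downstream were partners as well, and the stretch held 3, 2, 2 and 2 loops in the same order. A loop 42.6 kb upstream had 4.56 in FOXA1 liver mets and 0.372 in FOXA1 tumor and was in neither HNF4G list. One loop of 1957 kb to Cdk14, which encodes another cyclin-dependent kinase, was in both liver mets lists at the higher shared value. The distance range and these last 2 loops were picked out after the partners were seen.

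Cdkn1a encodes p21. Its annotated 5′ end, chr17:29090976, had no anchor within 2 kb, but 3 of its 5 annotated starts did. Its 36 distinct loops came from an anchor over starts further into the gene (chr17:29093688-29096142). They numbered 11 and 15 for FOXA1 (liver mets, then tumor) and 14 and 14 for HNF4G. Which start is mainly used was not tested. Between 10 and 50 kb upstream, all 4 anchors were partners and 3, 4, 4 and 4 of them were listed. This range was likewise chosen after seeing the positions. The stretch covers Trp53cor1, the lincRNA-p21 gene, a noncoding p53 target beside Cdkn1a. The loop to the Trp53cor1 start (16.2 kb), like the next one named after its values were seen, was in all 4 lists with 0.490, 0.341, 0.397 and 1.47. The loop to the wide anchor over the far part of Trp53cor1 (chr17:29052642-29060971, 38.1 kb) was in all 4 with 1.87, 2.02, 1.54 and 1.99. These 4 values lay between 1.54 and 2.02, and the first and last of them were the higher shared values of their lists.

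The longest Cdkn1a loop in all 4 lists, 167.3 kb upstream to the start of the noncoding gene Gm16191, had values of 2.40 and 1.55 for FOXA1 (liver mets, then tumor) and 1.73 and 1.69 for HNF4G. A neighboring anchor at the same gene (163.8 kb) was in both HNF4G lists, at 3.03 in liver mets and 2.96 in tumor, and in neither FOXA1 list. In FOXA1 tumor the highest value, 3.54, belonged to a loop into an intron of Mapk14, the gene of the stress kinase p38 alpha, 397.3 kb upstream, which no other list held. In HNF4G tumor the highest value, 3.52, belonged to an intergenic anchor 302.5 kb downstream that was in FOXA1 tumor at 1.79 and in neither liver mets list.

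Cdkn1b encodes p27. The loop of 6.20 kb to an anchor over the 3′ end of Cdkn1b and the start of Lockd (chr6:134924952-134930044), a noncoding gene just downstream, had values of 20 and 10.3 for FOXA1 (liver mets, then tumor) and 4.14 and 20 for HNF4G. It was the highest Cdkn1b loop of every list and the only loop of the 8 genes that led its gene in all 4. Another loop in all 4 lists joined the gene to the start of Gpr19, a receptor gene 23.1 kb upstream, with 1.79 and 1.70 in the FOXA1 lists and 0.395 and 0.167 in the HNF4G lists, so that both FOXA1 values lay above both HNF4G values. Cdkn1b had 27 and 19 loops for FOXA1 (liver mets, then tumor) and 11 and 12 for HNF4G. In HNF4G liver mets 1 of 11 loops spanned 100 kb or more, with a median of 62.8 kb, against 7 of 12 in HNF4G tumor (109 kb), 12 of 19 in FOXA1 tumor (119 kb) and 19 of 27 in FOXA1 liver mets (140 kb). Loops to a promoter anchor of Borcs5 (219.9 kb) and to that of Dusp16, a MAP kinase phosphatase gene, were in both FOXA1 lists and in neither HNF4G list. A loop to another Borcs5 promoter anchor (279.6 kb) was in FOXA1 tumor alone, at 3.17. These 3 loops were picked out after the partners were seen.

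**Figure D2:**
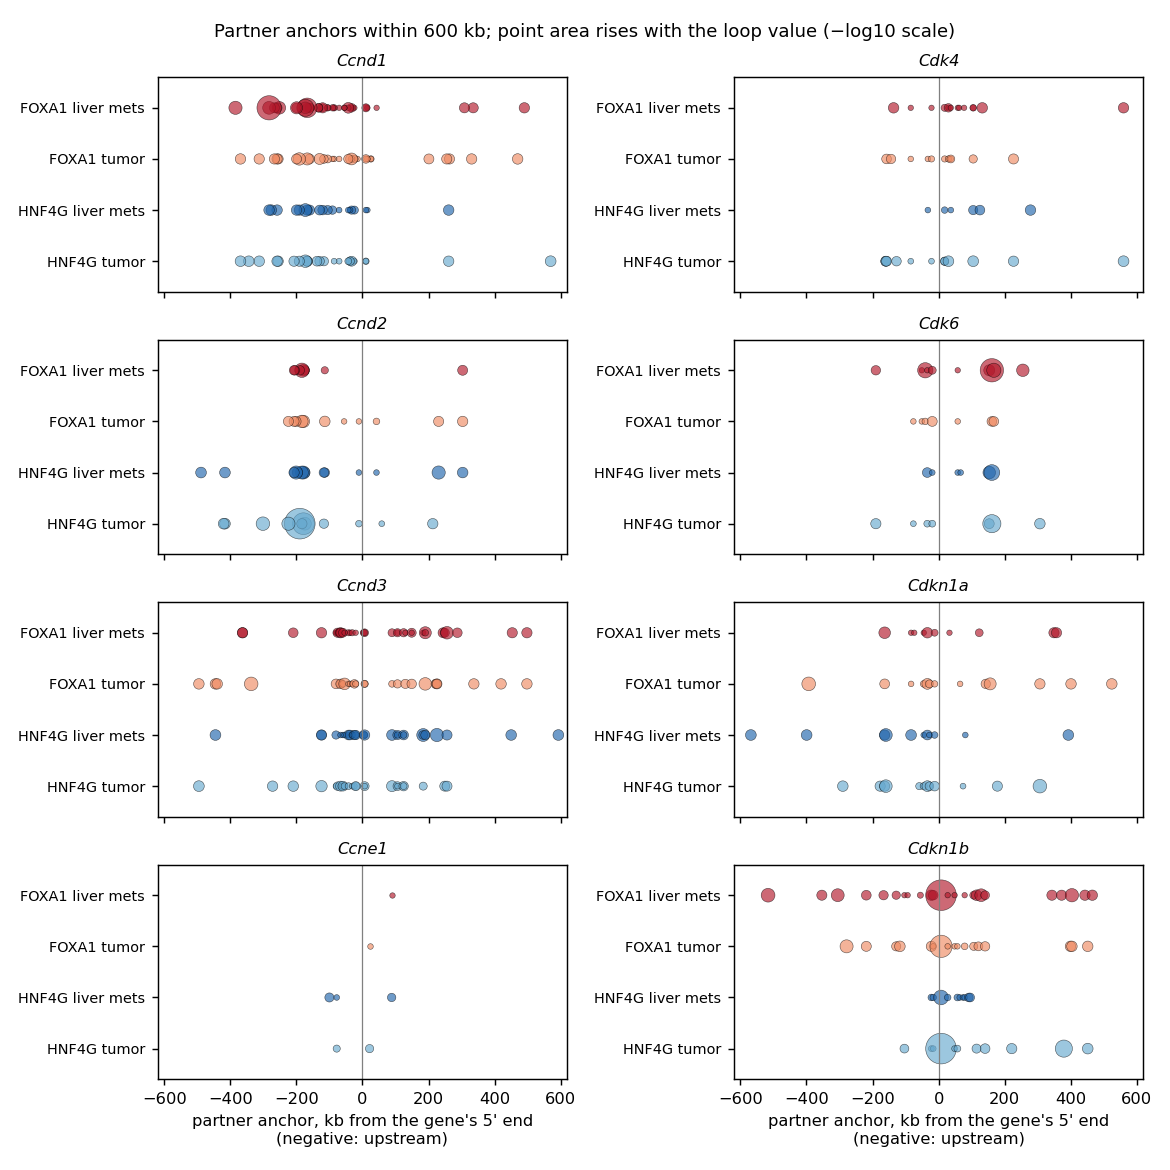
Signed distance in kb of each partner anchor from the 5′ end of its gene (horizontal axis, negative upstream), in the 4 lists (rows) for each of the 8 genes (panels), within 600 kb, with point area rising with the loop value. Partners of Ccnd1 lie mostly upstream, spread over distances of up to 290 kb and a few beyond. Those of Ccnd2 crowd between 170 and 230 kb upstream and those of Cdk6 near 160 kb downstream. The largest Cdkn1b point lies beside the gene in all rows, and 72 loops beyond 600 kb are not drawn.

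**Figure D3:**
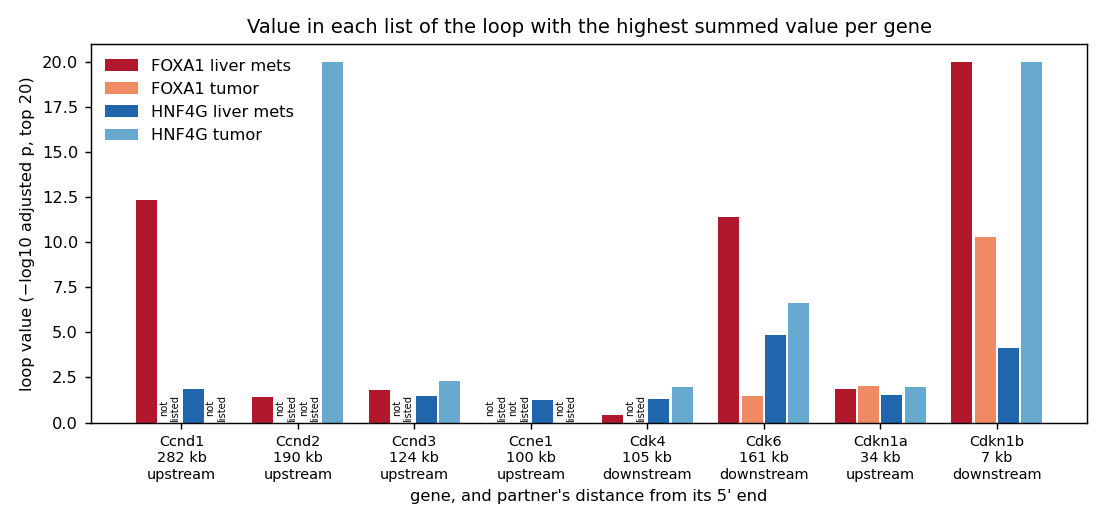
Value (−log10 scale, highest possible 20) in each of the 4 lists of the loop with the highest summed value at each gene, with the distance of the partner from the 5′ end under the gene. The Cdkn1b, Cdk6 and Cdkn1a loops have a bar in all lists, the Ccnd1 loop is absent from both tumor lists, and the Cdk4 and Ccne1 loops stay below 2.

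Liver mets and tumor were then compared, since the study asked how FOXA1 and HNF4G looping differ between these lines. At the 8 genes together, the FOXA1 lists held 168 loops for liver mets against 138 for tumor (ratio 1.22, 95% interval 0.966 to 1.54), and the HNF4G lists 113 against 120 (ratio 0.942, 0.722 to 1.23). The lists differ in size (125623 and 104136 loops for FOXA1 in liver mets and tumor, 78098 and 76323 for HNF4G), and as shares of their list the ratios were 1.01 (0.801 to 1.27) for FOXA1 and 0.920 (0.705 to 1.20) for HNF4G. Per 100000 listed loops, the 8 genes had 134 and 133 for FOXA1 (liver mets, then tumor) and 145 and 157 for HNF4G. Both intervals of the ratio of shares include 1, so at this number of loops no difference between liver mets and tumor was detectable for either factor.

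Gene by gene, a ratio of shares of 1.5-fold or more in either direction was called, without a test, for genes with at least 10 loops in both lists together. For FOXA1, 11.4% of all such coding genes were higher in liver mets and 15.2% in tumor. For HNF4G, 12.7% were higher in liver mets and 19.5% in tumor. Of the 8 genes 7 could be called, all but Ccne1. For FOXA1, none was higher in liver mets and 1, Cdkn1a, was higher in tumor, with 11 loops in liver mets against 15 (log2 ratio of shares −0.72, ratio 0.608, 0.253 to 1.42). For HNF4G, again none was higher in liver mets and 1, Cdk4, was higher in tumor, with 8 against 13 (log2 −0.73, ratio 0.601, 0.216 to 1.57). Both intervals include 1, and 1 of 7 genes is close to the background shares of 15.2% and 19.5%. The median log2 ratio of the 7 genes was 0.14 for FOXA1, beside −0.05 over 6862 genes, and −0.13 for HNF4G, beside −0.03 over 5425 genes.

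**Figure D4:**
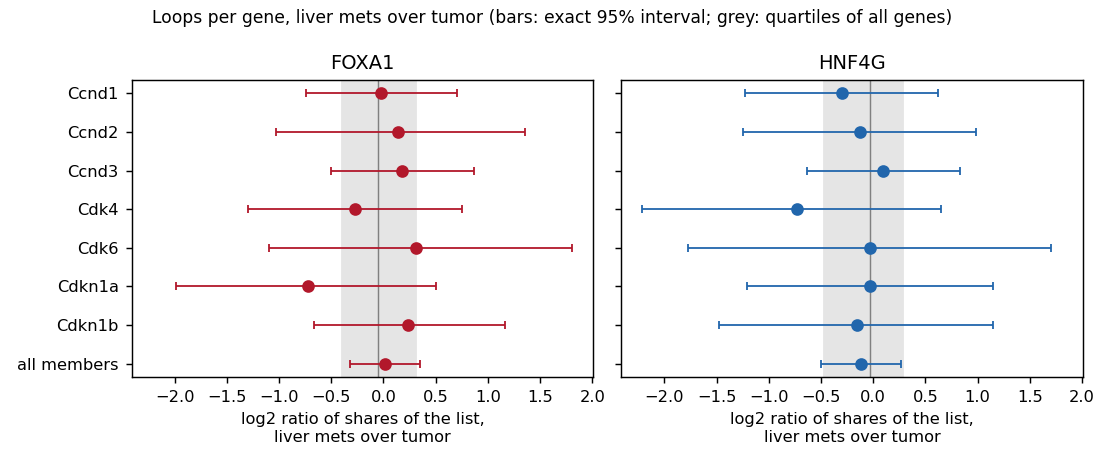
Log2 ratio of shares of the list, liver mets over tumor (horizontal axis), for FOXA1 (left) and HNF4G (right) at the 7 genes with at least 10 loops and at all 8 together, with exact 95% intervals as bars and the quartiles of all coding genes as a grey band. Every bar crosses 0, and Cdkn1a for FOXA1 (−0.72) and Cdk4 for HNF4G (−0.73) lie furthest to the left.

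Between the factors, the 8 genes had more FOXA1 than HNF4G loops in liver mets, 168 against 113 (ratio 1.49, 1.16 to 1.90), but as shares of the list the ratio was 0.924 (0.724 to 1.18). In tumor the numbers were 138 and 120, with a ratio of shares of 0.843 (0.655 to 1.09). Cdkn1b in liver mets had 27 FOXA1 and 11 HNF4G loops, a ratio of shares of 1.53 (0.733 to 3.41), the highest in either line of the 7 genes other than Ccne1 (1 to 3 loops a list), and Cdkn1a in liver mets had 11 and 14, the lowest of the 7, with 0.488 (0.201 to 1.16). Ccnd2 in tumor had 12 and 16, a ratio of 0.550 (0.237 to 1.24). The excess of FOXA1 loops in liver mets was thus no longer seen once the size of the lists was taken into account.

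How many of the candidate contacts were listed also differed between the genes. Among all pairs of anchors within 1000 kb of each other, 16% (liver mets) and 13.5% (tumor) were listed for FOXA1 and 10.2% and 9.88% for HNF4G. For pairs with a Cdk6 anchor the shares were 44%, 32%, 24% and 28%, and for Ccnd2 they were 25%, 30.6%, 38.9% and 36.1%. For Cdk4 they were 12.8%, 12.8%, 5.13% and 10.3%. Cdk6 and Ccnd2, with 1 anchor each, thus had few candidate pairs (25 and 36) of which many were listed. Cdk4 had 117 pairs of which few were listed, but these came from 2 anchors. A neighbor within 1000 kb of both Cdk4 anchors is counted in 2 pairs, so 117 is not a number of neighboring anchors. Among the 7 genes other than Ccne1, Ccnd2 alone had a listed share that was higher in both HNF4G lists than in both FOXA1 lists.

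Membership was counted with identical anchors. Of the 331 loops, 208 were in 1 list, 63 in 2, 35 in 3 and 25 in all 4 (7.55%, 5.17 to 10.9%), beside 5.54% of all 181129 loops with an anchor at a promoter. The share depends on this choice: with anchors widened by 5 kb it was 39.3%, beside 24.9%, and with only loops of a value of at least the −log10 of 0.05 it was 2.92%. For this last setting the share of all promoter loops was not counted. By gene, loops in all 4 lists numbered 8 at Ccnd3, 6 at Ccnd1, 4 at Cdkn1a, 3 at Cdkn1b, 2 at Ccnd2, 2 at Cdk6 and 0 at Ccne1 and Cdk4. Of the loops in 1 list alone (62.8%, beside 65.7% of all promoter loops), 74 (liver mets) and 57 (tumor) were FOXA1 loops and 38 and 39 HNF4G loops. Among all 118960 promoter loops in 1 list alone, the numbers were 42858, 32432, 21005 and 22665 in the same order. A larger number of FOXA1 loops was thus seen over all promoter loops too. Sharing went with span. Among loops below 50 kb, 15 of 49 (30.6%) were in all 4 lists, beside 22.5% of all promoter loops of that span. From 50 to 200 kb it was 10 of 121 (8.26%), beside 5.57%, and of the 80 loops from 200 to 500 kb and the 81 longer ones none was in all 4, beside 1.07% and 0.187%. The median span was 40.5 kb for loops in all 4 lists and 337.9 kb for loops in 1 list. A loop in all 4 lists need not have a high value: the Ccnd1 partner 68.8 kb upstream was at the lower shared value of every list.

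**Figure D5:**
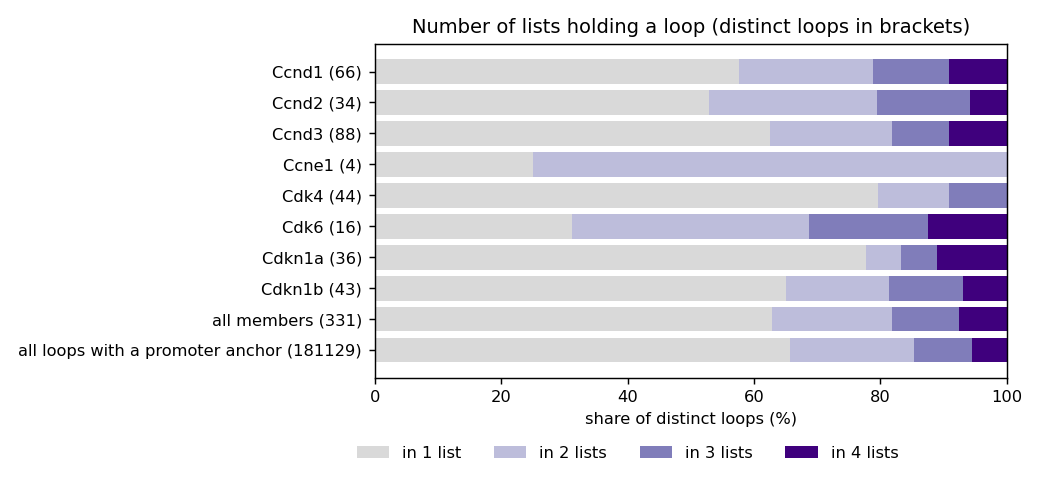
Share of distinct loops (horizontal axis, percent) found in 1, 2, 3 or 4 lists (shades from light to dark) for each gene, for the 8 genes together and for all loops with a promoter anchor, with the number of distinct loops in brackets. The part in all 4 lists is 7.55% for the 8 genes and 5.54% for all promoter loops, and is missing for Ccne1 and Cdk4.

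FOXA1 liver mets and FOXA1 tumor shared 61 loops, which were 36.3% of the first and 44.2% of the second. HNF4G liver mets and HNF4G tumor shared 50 loops, 44.2% and 41.7%. Across factors, FOXA1 and HNF4G shared 56 loops in liver mets (33.3% and 49.6%) and 49 in tumor (35.5% and 40.8%). Lists with neither factor nor line in common shared 57 loops (FOXA1 liver mets and HNF4G tumor, 33.9% and 47.5%) and 45 loops (FOXA1 tumor and HNF4G liver mets, 32.6% and 39.8%). All these shares lay between 32.6% and 49.6%. These shares and those by gene below were counted at the 8 genes only. Whether lists share loops to a like degree at other promoters was not tested. In liver mets, the share of a gene's HNF4G loops that were FOXA1 loops too was 85.7% at Cdk6 (6 of 7), 70% at Ccnd1 (14 of 20), 46.7% at Ccnd2, 45.7% at Ccnd3, 45.5% at Cdkn1b, 35.7% at Cdkn1a, 33.3% at Ccne1 (1 of 3) and 25% at Cdk4 (2 of 8).

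Over the 8 genes, 141 of 331 loops (42.6%, 37.4 to 48.0%) had a promoter at the partner anchor. Of all promoter loops, 38.7% had a promoter at each end. The share at the 8 genes is counted from a gene's own anchor, so a loop between promoters can be reached from either end. The share of all promoter loops is counted per loop, not per promoter. These shares therefore cannot be compared, and whether the 8 genes differ from other genes here was not tested. Among the 331 loops, the partner covered or neighbored a coding start in 114. Of the partners, 96 were intergenic, 59 in introns and 35 across exons and introns. The share with a promoter partner ran from 19.7% at Ccnd1 and 25% at Cdk6 to 50% at Ccnd3, 52.8% at Cdkn1a and 70.5% at Cdk4. The forkhead core occurred 0.158 times per kb in the partners, beside 0.179 in all anchors and 0.208 in the 24 partner anchors of loops in all 4 lists, and AP-1 letters 0.400, 0.432 and 0.452 times.

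Other genes of the G1 to S pathway were read from a list of 25, namely the remaining cyclin, kinase and inhibitor genes, the retinoblastoma and E2F families and regulators such as Skp2 and Fbxw7. Of these, 23 had an anchor, with medians of 8 and 5 loops for FOXA1 (liver mets, then tumor) and 4 and 3 for HNF4G. E2f2, an activating E2F, had 38, 41, 29 and 19 loops in that order and Cks1b, a CDK-binding protein gene, 35, 20, 22 and 17. For FOXA1, 17 could be called, and 3 were higher in liver mets (11.4% of all coding genes tested) and 1 in tumor (15.2%). Those higher in liver mets were Cdk2, the kinase of cyclin E, with 9 against 3 loops (log2 ratio of shares 1.31, ratio 2.49, 0.621 to 14.3), and the inhibitor genes Cdkn2d (11 against 4, log2 1.19, ratio 2.28, 0.675 to 9.82) and Cdkn1c (7 against 3, log2 0.95, ratio 1.93, 0.442 to 11.6). The one higher in tumor was E2f6, which encodes a repressor (6 against 8, log2 −0.69, ratio 0.622, 0.178 to 2.04). All 4 intervals include 1. The median of the 17 genes was −0.27. For HNF4G, 4 could be called and none passed (12.7% and 19.5% of all coding genes), and their median was 0.26. Cdk2 had 2 HNF4G loops in liver mets and 6 in tumor, too few to be called.

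The gene whose shares of loops over the 4 lists came nearest to each member, by Euclidean distance among coding genes with at least 20 loops that lay on another chromosome or beyond 2 Mb, was Dcst2 for Ccnd1, Cactin for Ccnd2, Ddr1 for Ccnd3, Fmc1 for Cdk4, Igfals for Cdk6, Prss30 for Cdkn1a and Jak2 for Cdkn1b. Igfals had the same 12, 8, 7 and 7 loops as Cdk6, a distance of 0, and the largest distance was 0.0157, between Cdkn1a and Prss30. These likenesses rest on 4 numbers per gene and describe the shape of the counts alone.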

How the data were processed

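Hi-ChIP with FOXA1 or HNF4G antibodies gave 8 samples, 2 replicates in each of 4 groups, and groups were taken from the sample titles. Per the labels and the study's methods, the authors aligned reads to mm10 with HiC-Pro 3.1.0, assigned them to DpnII fragments, discarded duplicates and called loops with hichipper. How the replicates were joined was not given in the sources used here, and read depth is unknown. The deposited lists hold per loop a −log10 value, taken as an adjusted p-value, and a display score, which was not used as a result. The unit of the −log10 value is not stated in the lists.

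Anchors were matched to transcript starts of GENCODE M21 (GRCm38), and a gene had a loop when an anchor lay within 2 kb of a start. A partner was a promoter when any annotated start lay within 2 kb of it. A loop was the same in 2 lists when both anchors were identical, since the 30542 anchors are common to all lists. Ratios of loop numbers have exact intervals conditional on their sum, counts exact Poisson intervals and shares Wilson intervals, all at 95%, and cover counting error only. Ratios of shares divide by list size. Reads in overlapping or neighboring genes cannot be separated. Named for each gene were the loop with the highest value per list, the longest in all 4 lists and those to coding starts in all 4 lists (at most 5), and loops chosen later are named as such. Members and lists were chosen with earlier results of these data known. Sequence letters were searched on both strands of the RefSeq GRCm38.p6 genome, and promoters came from RefSeq windows of 300 bases. Python 3.11.15, pandas 2.3.3, NumPy 2.4.6, SciPy 1.17.1 and matplotlib 3.10.9 were used, and the mapping and intervals were tested on simulated data.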

Additional observations from a re-analysis of the deposited data

How the results depend on the processing

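The 9 alternatives were other anchor distances (the start inside the anchor, or within 5 kb), 5′ ends only, values of at least 2 or of at least the −log10 of 0.05, spans of 20 kb or more, leaving out Ccnd3, division by list size and anchors widened by 5 kb. Of 31 values of the 4 main results under these, 26 stayed within the 95% interval of the reported value. With values of at least 2, the FOXA1 ratio of liver mets to tumor at the 8 genes was 1.71 (0.852 to 3.58), the share of loops in all 4 lists 4.35% and the share with a promoter partner 37.0%. With values of at least the −log10 of 0.05, the share in all 4 lists was 2.92%. These settings leave fewer loops, and shares of all promoter loops were not counted under them. With anchors widened by 5 kb before matching, it was 39.3%, beside 24.9% of all promoter loops, so exact matching of anchors sets how often a loop counts as shared. The FOXA1 ratio ran from 1.01 to 1.71 and the HNF4G ratio from 0.846 to 0.975, and no interval excluded 1. Of 117 ratios of single genes, 114 stayed within the interval and 6 moved to the other side of 1.

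The number of distinct loops depends on the distance rule at 6 genes. When the start had to lie inside the anchor, Cdk4 had 25 and Ccnd1 44. With 5′ ends only, Ccnd3 had 46, Ccnd1 44 and Cdkn1a none, since no anchor lies within 2 kb of its 5′ end. With 5 kb, Ccnd2 had 61, Ccnd3 107 and Cdkn1b 100. No paired analysis was possible because each group has 1 list that covers both replicates, and for the same reason leaving out a replicate was not run.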
